A study of Mus musculus with 267 samples.

Results

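Chromatin at 5 genes of arachidonic acid metabolism, Alox15, Alox5, Alox5ap, Ptgs1 and Hpgds, was described in bone marrow-derived macrophages (BMDMs) before and after interleukin 4 (IL-4). Every deposited region or factor peak whose centre lay within 50 kb of the start of one of these genes was taken (mm10, GENCODE vM21), for all marks, strains, times and genotypes. The 5 genes, of 21951 protein-coding genes, held 40 of 67742 regions in the C57 table, 40 of 54022 in BALB, 44 of 68932 in NOD, 39 of 60175 in PWK, 34 of 54755 in SPRET, 48 of 77955 in the C57 time course, 23 of 30675 sites in the EGR2 time course and 2 of 4677 sites in the Egr2 deletion tables. A further 1553 of 1958714 peaks in 54 factor peak lists were theirs.

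BMDMs from female mice aged 8 to 12 weeks were grown for 7 days with M-CSF and left untreated (basal) or given IL-4 at 20 ng/mL, and chromatin immunoprecipitation sequencing (ChIP-seq) was run for H3K27ac (a mark of active promoters and enhancers), H3K4me2 and H3K4me3 (marks of regulatory regions and of promoters), RNA polymerase II (Pol II) and the factors EGR2, STAT6, PPARg, PU1 and CEBPb. The strains were C57 (C57BL/6J), BALB (BALB/cJ), NOD (NOD/ShiLtJ), PWK (PWK/PhJ) and SPRET (SPRET/EiJ), each basal and after 24 hours, and C57 also after 1 and 6 hours. The genotype groups were Egr2flfl, in which both Egr2 alleles are floxed, and LyzMCreEgr2flfl, which carries the same alleles with a Cre driven by the lysozyme M promoter in myeloid cells, each basal and after 24 hours, so the controls also carry floxed Egr2. The series held 267 samples, of which 155 libraries had a column of values, with totals from 4691644 to 29050468 tags (median 12936233). Values are tags in a region scaled to a library total of 10000000 (normalized tags), so that 1 normalized tag stood for 0.469 to 2.91 sequenced tags. The labels do not say which replicates came from separate animals, and p-values then measure the spread between libraries, which may be technical. RNA was not measured in these files, and a change in a mark is not a change in a transcript. In libraries from whole cultures, fewer cells carrying a mark and less of the mark per cell cannot be told apart.

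Arachidonic acid, released from membrane phospholipids, is oxidised along separate enzymatic branches. Lipoxygenases form hydroperoxides and, through 5-lipoxygenase, the leukotrienes, which recruit and activate leukocytes. Cyclooxygenases form prostaglandin H, from which terminal synthases make the individual prostaglandins. Alox5 encodes 5-lipoxygenase, Alox5ap encodes FLAP, the membrane protein that presents arachidonic acid to it, and Alox15 encodes a lipoxygenase known as a product of alternatively activated macrophages. Ptgs1 encodes cyclooxygenase 1 (COX-1), and Hpgds the hematopoietic synthase that turns prostaglandin H into prostaglandin D.

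The start of Alox15 lies on chromosome 11 (gene at chr11:70344152-70352031, minus strand), that of Alox5 at chr6:116410077-116461178 (minus), Alox5ap at chr5:149264767-149288153 (plus), Ptgs1 at chr2:36230426-36252272 (plus) and Hpgds at chr6:65117293-65144908 (minus). Distances are given from the gene's start along its strand, negative upstream. No region within 1 kb of the Alox15 start was listed in any table, and one at the Alox5 start was listed only in C57 and NOD. Regions at the starts of Alox5ap, Ptgs1 and Hpgds were present in every strain. The region -30160 bp from Alox15 lies nearest to the start of Pelp1 and the one at +45795 bp nearest to Alox12e, while the regions -25866 and -32845 bp from Alox5 lie nearest to Olfr211.

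The sequences that the results turn on are shown first, read from the RefSeq mouse genome (GRCm38.p6, the mm10 coordinates). They are the 151 bases at the centre of the 2 sites measured after Egr2 deletion, of an EGR2 site inside the Ptgs1 region with the highest H3K27ac outside the gene, of the most strongly marked distal regions of Hpgds and Alox15, and the 250 bases before the Ptgs1 start. Capitals mark matches, on either strand, to a STAT motif (TTCNNNNGAA), an EGR motif (GTGGGNG), a PU.1 motif (GGAAGT) or a C/EBP motif (TTGCNNAA), which may overlap.

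Ptgs1 site -9309 bp, intergenic, chr2:36221042-36221192, plus strand: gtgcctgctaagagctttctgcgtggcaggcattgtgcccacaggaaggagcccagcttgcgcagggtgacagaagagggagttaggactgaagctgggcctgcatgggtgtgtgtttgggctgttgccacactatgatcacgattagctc
Alox15 site -30160 bp, intergenic, chr11:70382116-70382266, plus strand: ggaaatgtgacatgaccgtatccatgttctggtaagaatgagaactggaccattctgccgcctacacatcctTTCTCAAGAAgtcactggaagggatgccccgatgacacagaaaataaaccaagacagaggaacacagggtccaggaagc
Ptgs1 EGR2 site -13246 bp, intergenic, chr2:36217105-36217255, plus strand: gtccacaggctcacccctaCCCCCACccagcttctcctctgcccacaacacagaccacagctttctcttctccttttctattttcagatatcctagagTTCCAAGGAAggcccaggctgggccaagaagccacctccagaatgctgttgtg
Hpgds region -20260 bp, intergenic, chr6:65165093-65165243, plus strand: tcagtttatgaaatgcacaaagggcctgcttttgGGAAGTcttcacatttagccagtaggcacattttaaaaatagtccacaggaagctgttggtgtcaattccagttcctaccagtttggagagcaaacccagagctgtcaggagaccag
Alox15 region -22465 bp, intergenic, chr11:70374421-70374571, plus strand: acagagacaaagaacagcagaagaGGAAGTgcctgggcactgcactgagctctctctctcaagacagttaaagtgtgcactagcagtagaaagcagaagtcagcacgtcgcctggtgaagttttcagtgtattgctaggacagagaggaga
Ptgs1 bases before the start, chr2:36230176-36230425, plus strand: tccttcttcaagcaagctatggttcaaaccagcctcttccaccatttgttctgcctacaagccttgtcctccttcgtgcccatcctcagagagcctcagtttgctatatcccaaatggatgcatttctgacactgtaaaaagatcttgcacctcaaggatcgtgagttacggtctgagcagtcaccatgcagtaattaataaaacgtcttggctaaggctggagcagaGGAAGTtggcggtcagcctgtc

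The Ptgs1 site at -9309 bp held none of the 4 motifs, and the Alox15 site at -30160 bp held 1 STAT match and no EGR match. The Ptgs1 EGR2 site at -13246 bp held 1 STAT match and 1 EGR match, whereas the 151 bases at the centre of the H3K27ac region around it (-13203 bp) held the STAT match and 0 EGR matches, and the Hpgds region at -20260 bp and the Alox15 region at -22465 bp held 1 PU.1 match each. Over all 30662 windows of the same length at EGR2 sites, 5.28% held the STAT motif, 46.7% the EGR motif, 27.3% the PU.1 motif and 11% the C/EBP motif. Of the 23 EGR2 sites near the 5 genes, 4 held the STAT motif, 11 the EGR motif, 8 the PU.1 motif and 1 the C/EBP motif. Over 67730 windows at C57 regions the shares were 3.41%, 17%, 28.7% and 9.51%. The RefSeq promoter table (300 bases, from 250 before to 50 after a start) had an entry for 3 of the 5 genes, Alox5, Ptgs1 and Hpgds. The Ptgs1 promoter held 1 PU.1 match, in the stretch printed, and 1 EGR match after the start. The Hpgds promoter held 1 PU.1 and 1 C/EBP match and the Alox5 promoter none. Among 32851 promoters, 6.95% held the STAT motif, 31.6% the EGR motif, 23.8% the PU.1 motif and 10.8% the C/EBP motif. A match describes the letters only.

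The first comparison asked how each gene's chromatin responded to 24 hours of IL-4 across the strains. At the Ptgs1 start and its upstream region H3K27ac and Pol II rose, whereas at the starts of Hpgds and Alox5ap and at the distal regions of Alox15 and Alox5 H3K27ac fell. Regions were matched between strains when their centres lay within 250 bp, which left 28643 regions, 24 of them near the 5 genes (4 for Alox15, 3 for Alox5, 8 for Alox5ap, 7 for Ptgs1 and 2 for Hpgds). The IL-4 difference, averaged over the strains with each strain's own basal level, was tested with limma on log2(normalized tags + 1) and adjusted by Benjamini-Hochberg over all 28643 regions, with regions called at an adjusted p under 0.05. Low regions differ by less on this scale than in raw tags. Groups are termed separate where all libraries of one state lie above or below all of the other. The share of all 28643 regions that were separate was not counted, nor was it in the time course or after Egr2 deletion. Separation is therefore a description of the libraries and not a trait particular to these genes.

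Ptgs1 was the member whose start rose. In H3K27ac, normalized tags in the C57 start region (+70 bp) were 5.43 and 63.46 basal and 58.57 and 98.45 at 24 hours, and in BALB 27.92 and 37.53 against 88.1 and 68.12. In NOD they were 6.65 and 42.86 against 44.12 and 42.78, in PWK 8.58 and 27.41 against 33 and 51.54, and in SPRET 64.12 and 66.51 against 254.78 and 152.92. All 24 hour libraries lay above all basal ones in BALB, PWK and SPRET, while the groups overlapped in C57 and NOD, where one basal library was near the 24 hour level. The fitted log2 difference was 1.47 (SE 0.36, adjusted p = 0.00402 by limma).

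Pol II at the Ptgs1 start separated the groups in every strain. Normalized tags in C57 were 45.55, 14.44, 36.98 and 19.24 basal and 50.69, 147.9 and 66.7 at 24 hours, in BALB 23.63, 39.14 and 24.07 against 87.39 and 88.08, and in NOD 9.08 and 15.06 against 46.36 and 40.49. In PWK they were 7.05, 11.89 and 17.43 against 34.51, 42.02 and 53.88, and in SPRET 51.28, 41.11 and 33.89 against 138.59, 106.03 and 86.8. Every 24 hour library was above every basal library of its own strain, the C57 gap being the narrowest. The log2 difference was 1.63 (SE 0.20, adjusted p = 4.33e-07 by limma).

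The region -13203 bp from Ptgs1 carried more H3K27ac than the start itself. The C57 libraries held 61.74 and 289.5 normalized tags of H3K27ac there basal and 341.23 and 399.69 at 24 hours, and those of BALB 91.12 and 233.54 against 393.07 and 258.2. NOD libraries held 61.51 and 204.79 against 325.48 and 273.54, those of PWK 22.32 and 88.48 against 107.08 and 127.89, and those of SPRET 143.62 and 189.65 against 739.67 and 407.08. The groups did not overlap in any of the 5 strains, and PWK had the lowest mean of the strains in both states. The log2 difference was 1.41 (SE 0.31, adjusted p = 0.00154). The first basal library of C57, BALB, NOD and PWK lay far below the second at this region, and that of C57, NOD and PWK also at the start. In the same C57 libraries the summed H3K27ac of a platelet list (Pf4, Itga2b, Gp9 and Gp1bb) was 74.62 in the first and 385.76 in the second, and 41.59 to 42.01 normalized tags at 24 hours, with a start region for 2 of the 4 genes, Pf4 at 71.91 and 384.33 basal and no region at Gp9 and Gp1bb. The basal BALB libraries summed to between 42.62 and 224, those of NOD to between 137.98 and 478.65, those of PWK to between 60.09 and 129.98 and those of SPRET to between 6.58 and 8.55. Ptgs1 is known to be active in platelets, and the list's part in the Ptgs1 values was not tested.

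**Figure D1:**
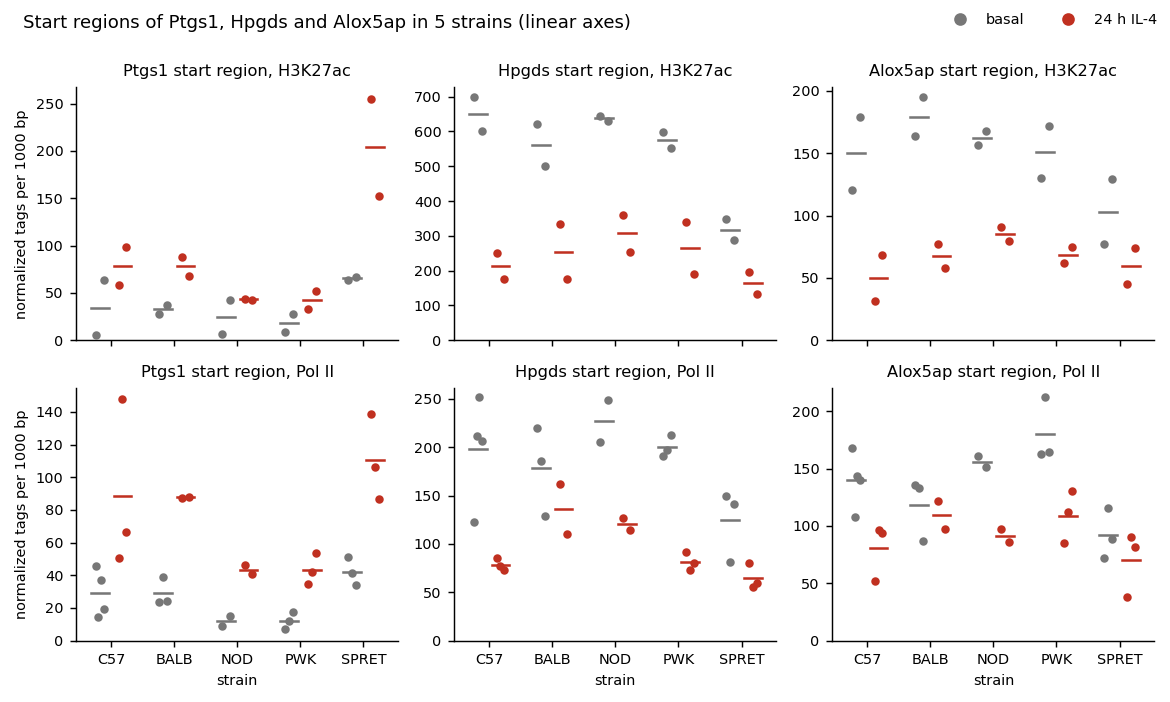
Normalized tags per 10000000 at the start regions of Ptgs1, Hpgds and Alox5ap in each library of the 5 strains, for H3K27ac and Pol II, with basal and 24 hour libraries as separate points. Ptgs1 Pol II at 24 hours (34.5 to 148) lies above the basal libraries in each strain, and Hpgds H3K27ac at 24 hours (134 to 361) lies below them.

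In all, H3K27ac was called higher at 4 of the 24 matched regions (7.3% of all regions) and lower at 14 (28.3% of all regions). The 4 higher regions were all at Ptgs1, at -13766, -13203, +70 and +48573 bp; the first overlaps the second and shares its tags. The region at +48573 bp was low, at 9.53 against 4.106 normalized tags (means of 10 libraries each). The other 3 Ptgs1 regions, at +4250, +14471 and +42345 bp, did not pass (log2 differences 0.74, 0.39 and -0.19). Members had a median log2 difference of -0.80, and all regions one of -0.31, which moved to 0.01 when libraries were rescaled by median ratios. Under that scaling 17 member regions were called, 4 higher and 13 lower. The shares of all regions given here belong to the fit without rescaling, and those under it are not given.

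Hpgds showed the opposite direction at its start (+163 bp). H3K27ac was 698.78 and 602.53 normalized tags basal and 252.1 and 175.23 at 24 hours in C57, with 621.69 and 499.84 against 333.58 and 175.79 for BALB. It was 645.01 and 630.26 against 360.92 and 253.84 in NOD, 597.41 and 553.58 against 338.74 and 191.83 for PWK, and 347.94 and 287.11 against 196.6 and 133.54 for SPRET. The groups were separate in all 5 strains, and SPRET had the lowest mean in both states. The log2 difference was -1.20 (SE 0.18, adjusted p = 6.19e-05).

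Pol II at the Hpgds start fell with it. Across strains basal values ran from 81.5 to 252 normalized tags (median 197, 15 libraries) and 24 hour values from 55.1 to 162 (median 80.4, 13 libraries), and the groups were separate in 4 strains. BALB was the strain in which they met, at 219.73, 185.64 and 129.08 basal against 161.99 and 110.29. The log2 difference was -0.95 (SE 0.14, adjusted p = 1.15e-05 by limma). The region at +29850 bp lies past the end of Hpgds and is annotated to the 3' UTR of another transcript (NM_007958). Pol II there had a log2 difference of -0.92 (33.4 against 67.1, adjusted p = 0.00222 by limma), and H3K27ac was not called (-0.21, adjusted p = 0.477).

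Alox5ap, the FLAP gene, was lower as well. At its start (+274 bp) H3K27ac ran from 76.9 to 195 normalized tags basal (median 160.1) and from 31.4 to 91.1 at 24 hours (median 71.3). The groups were separate in all 5 strains, and the log2 difference was -1.17 (SE 0.19, adjusted p = 0.000137). In Pol II the same region went from 71.6 to 212 basal (median 139.7) to 38.0 to 129.99 (median 93.6), with groups separate in 3 strains and a log2 difference of -0.57 (SE 0.15, adjusted p = 0.00892). Of the 8 matched Alox5ap regions 7 were called lower in H3K27ac, the exception being -35584 bp (-0.47, adjusted p = 0.0859). The intronic region at +2901 bp, the most strongly marked of the matched Alox5ap regions, was at 303 to 670.0 basal and 164 to 517 at 24 hours and overlapped in 2 of the 5 strains (log2 difference -0.68, SE 0.21, adjusted p = 0.017), and was not called after rescaling by median ratios (-0.34, adjusted p = 0.0508). An overlapping region at +2210 bp, listed in the C57 time course, held more, at 875.85 and 567.59 basal and 365 and 204.77 at 24 hours. The upstream region at -18553 bp was at 329 to 518 basal and 141 to 322 at 24 hours, with separate groups in 5 strains (-0.84, SE 0.18, adjusted p = 0.00116).

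Alox5 had little H3K27ac at its start. In C57 the start region (+138 bp) held 8.14 and 14.97 normalized tags basal and 5.94 and 7.88 at 24 hours, and in NOD (+201 bp) 25.77 and 19.05 against 14.47 and 5.63. The 24 hour libraries were below the basal ones in both strains, without a fitted value over the 5 strains. Its intronic region at +5180 bp was at 22.4 to 111 basal (median 58.2) and 8.49 to 38.8 at 24 hours (median 28.9), separate in all 5 strains (log2 difference -1.03, SE 0.22, adjusted p = 0.00113). At -25866 bp, nearer to Olfr211 than to Alox5, values fell from 108 to 304 (median 182) to 30.6 to 149 (median 71.8), again separate in 5 strains (-1.42, SE 0.19, adjusted p = 1.52e-05).

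Alox15 was represented by a cluster of 3 intergenic regions upstream. At -22465 bp H3K27ac was 54.9 to 229.6 normalized tags basal (median 119) and 23.6 to 70.0 at 24 hours (median 49.8), with separate groups in all 5 strains and a log2 difference of -1.35 (SE 0.22, adjusted p = 0.000113). The neighbours at -20586 and -24290 bp had log2 differences of -1.41 and -1.35 and were separate in 4 and 5 strains. Pol II at these intergenic regions was low and called lower at each, by -1.07 at -22465 bp (7.83 against 17.8, adjusted p = 0.00314), -0.82 at -20586 bp and -0.79 at -24290 bp. The region at +45795 bp, nearest to Alox12e, had 1.59 to 11.75 normalized tags of H3K27ac basal and was not called (-0.55, adjusted p = 0.186).

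**Figure D2:**
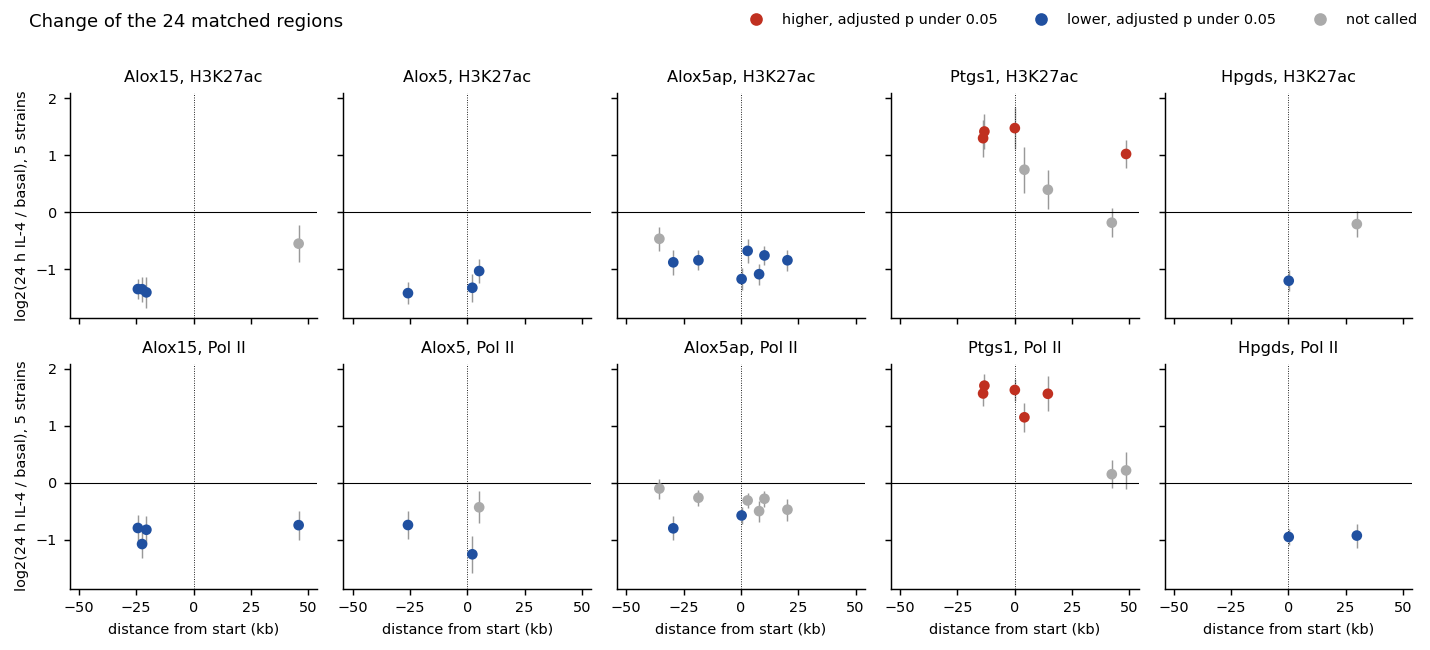
Log2 difference between 24 hours and basal, averaged over 5 strains, in H3K27ac and Pol II at the 24 matched regions against distance from the gene's start, with error bars of 1 SE. Regions of Ptgs1 from -13766 to +4250 bp lie above 0 in both, and those of Alox15, Alox5, Alox5ap and Hpgds lie below 0 in H3K27ac.

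Over all 24 matched regions, Pol II was called higher at 5 (7.47% of all regions), all of Ptgs1 (-13766, -13203, +70, +4250 and +14471 bp), and lower at 10 (7.25% of all regions), none of Ptgs1. H3K4me3 was called higher at 4 (3.93% of all regions), again of Ptgs1: from 124.5 to 205.5 normalized tags at the start (log2 difference 0.80, adjusted p = 0.00434), from 13.8 to 47.9 at -13203 bp (1.83, adjusted p = 8.24e-06), and at -13766 and +4250 bp. It was called lower at 3 (9.87% of all regions), the starts of Alox5ap (-0.76) and Hpgds (-0.42) and the Alox5ap region at -35584 bp (-0.42). H3K4me2 was called lower at 19 (71.9% of all regions) and higher at 0 (1.76% of all regions), where the median over all regions was itself -0.53. After rescaling by median ratios 2 member regions were called in H3K4me2, both higher, and 3 in H3K4me3, all higher, so the lower calls in these marks depended on the scaling. The shares of all regions after rescaling are not given. The macrophage list (Csf1r, Adgre1, Cd68, Itgam, Spi1 and Mertk, 6 of 6 with a start region in C57) also had less H3K27ac at 24 hours, 1620 and 1629 normalized tags against 3383 and 3415 basal, and its part in the falls at Hpgds and Alox5ap was not tested. Of the T cell list (Cd3e, Cd3d, Lck and Cd4) 0 of 4 genes had a start region, and of the mast cell list (Kit, Cpa3, Fcer1a and Tpsb2) 1 of 4 did, with Kit at 2.04 and 5.7 basal. Of the eosinophil list (Epx, Prg2, Siglecf and Il5ra) 1 of 4 did, Siglecf, at 20.35 and 43.5 basal and 56.87 and 87.95 at 24 hours in C57, and its part in the Ptgs1 values was not tested.

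Whether the IL-4 difference itself varied between strains was tested as a strain by IL-4 interaction. No member region was called in H3K27ac (0% of all regions) or in Pol II (0% of all regions) with limma. None had an unadjusted p under 0.05 in either, and edgeR and DESeq2 called 0 as well. With 2 libraries a group in H3K27ac and 2 to 4 in Pol II this does not show that the strains responded alike.

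Within each strain, a region was counted as changed when its mean H3K27ac (normalized tags + 1) differed 2.5-fold with at least 16 normalized tags in the higher state, the study's H3K27ac thresholds, with no test; the study's further conditions on Pol II were not applied. C57 had 1 higher member region (3.46% of all its regions) and 12 lower ones (7.55%). BALB had 0 higher (2.84%) and 9 lower (5.13%), and NOD 1 higher (3.24%) and 7 lower (5.14%). PWK had 0 higher (3.1%) and 5 lower (3.01%), whereas SPRET had 3 higher (2.64%) and 0 lower (0.939%). The higher regions were all of Ptgs1: -9308 bp in C57 (22.8 against 2.82 normalized tags, 6.22-fold), -12650 bp in NOD (183 against 57.2, 3.15-fold) and 3 in SPRET, led by -13217 bp (573 against 167, 3.43-fold). Among the lower regions, Hpgds had 3 in C57, 3 in BALB, 2 in NOD and 2 in PWK, and Alox15 had 4 in C57, 3 in BALB and 2 in NOD. The Hpgds region at -20260 bp had the highest fold in C57, from 337.18 and 308.04 to 64.51 and 63.66 normalized tags (4.97-fold). A neighbour at -19444 bp led in BALB (35.2 against 151, 4.22-fold), one at -19442 bp in NOD (61.5 against 209, 3.36-fold), and the Alox5 region at +1011 bp in PWK (11.3 against 47.1, 3.93-fold).

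The time course in C57 asked when these changes were present. At the Hpgds start and 2 Alox5ap regions H3K27ac was already lower after 1 hour under both scalings used, and at Ptgs1 the start and a weakly marked upstream site had gained it by 6 hours. The basal and 24 hour libraries are those of the C57 table, each time was set against the same basal libraries, and H3K27ac values are from 2 libraries a time. Medians over all regions were -0.63, -0.14 and -0.22 at 1, 6 and 24 hours, and the share of tags inside regions was 69.7% and 63.8% in the basal libraries and 44.0% and 20.5% in those of 1 hour.

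At 1 hour 1 of 48 member regions was called higher (1.37% of all regions) and 14 lower (8.36%), at 6 hours 2 (2.67%) and 8 (2.46%), and at 24 hours 1 (1.13%) and 2 (0.327%). After rescaling by median ratios, which moved the 1 hour median over all regions to 0.09, the 1 hour calls fell from 15 to 4, namely the Ptgs1 site at -9305 bp (3.003, higher), the Alox5ap regions at -17630 and +20239 bp (-1.97 and -2.42) and the Hpgds start (-1.43, adjusted p = 0.0465). The share of all regions called after rescaling is not given. The counts also rested on single libraries: without the second basal library 1 region was called at 1 hour, without the first or second 6 hour library 0 were called at 6 hours, and without the first basal, second 24 hour, first 6 hour or second 6 hour library 0 were called at 24 hours.

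The site -9305 bp from Ptgs1 was called higher at every time. It held 1.36 and 4.28 normalized tags basal, 19.33 and 14.8 at 1 hour, 20.02 and 22.52 at 6 hours and 12.73 and 32.82 at 24 hours. All treated libraries were above both basal ones. The libraries of 24 hours spanned those of 1 and 6 hours, and both libraries of 1 hour lay below both of 6 hours. Log2 differences were 2.34 (SE 0.63, adjusted p = 0.0309), 2.66 (adjusted p = 0.0215) and 2.61 (SE 0.63, adjusted p = 0.0451). The Ptgs1 start went from 5.43 and 63.46 to 102.81 and 47.85, 187.13 and 120.49, and 58.57 and 98.45, and was called at 6 hours (2.89, SE 0.79, adjusted p = 0.0401). The more strongly marked region at -13220 bp was at 61.06 and 287.36 basal, 131.41 and 117.73 at 1 hour, 177.12 and 286.63 at 6 hours and 336.99 and 399.03 at 24 hours, and was not called at any time, with the 2 basal libraries spanning the values of 1 and 6 hours.

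At Hpgds, calls at 1 hour depended in part on the scaling. The region at -20260 bp went from 337.18 and 308.04 to 66.48 and 67.81 at 1 hour, 73.16 and 49.29 at 6 hours and 64.51 and 63.66 at 24 hours, without overlap between basal and treated libraries. Its log2 differences were -2.25 (adjusted p = 0.0203), -2.40 (adjusted p = 0.0144) and -2.31 (SE 0.53, adjusted p = 0.0347), and with median-ratio scaling it was not called at 1 hour (-1.44, adjusted p = 0.0749). The start region was at 166.2 and 112.22 at 1 hour (-2.24, adjusted p = 0.0239), 182.51 and 219.08 at 6 hours and 252.1 and 175.23 at 24 hours, against 698.78 and 602.53 basal, and was not called at 6 or 24 hours, while median-ratio scaling called it at 6 hours (-1.48, adjusted p = 0.0309).

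Alox5ap accounted for 8 of the 14 regions called lower at 1 hour, and for 2 of the 3 so called with median-ratio scaling. Some of the listed regions overlap and share tags. Those of Alox5ap at -19198, -18575, -17630 and -16953 bp each overlap the next, and +2210 overlaps +2900 bp. The Hpgds regions at -20260 and -19450 bp overlap as well. Counts of regions here and within each strain can include such pairs. The intronic region at +20239 bp went from 116.69 and 133.34 to 11.6 and 13.77 (-3.20, SE 0.54, adjusted p = 0.00877), and stood at 36.19 and 37.73 at 6 hours and 67.06 and 37.41 at 24 hours. At +2900 bp the libraries of 1 hour disagreed, at 345.54 and 79.86 against 635.69 and 464.2 basal.

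Alox15 and Alox5 regions were also called lower. The Alox15 region at -44412 bp, in an exon of Pelp1, went from 22.39 and 54.19 to 0.77 and 3.04 at 6 hours (-3.75, SE 0.79, adjusted p = 0.0116), and the one at -22461 bp from 72.59 and 230.32 to 32.34 and 20.69 (-2.28, adjusted p = 0.0363). The Alox5 region at -25838 bp went from 150.61 and 167.57 to 24.64 and 46.86 at 6 hours (-2.19, adjusted p = 0.0268) and 29.71 and 38.07 at 24 hours (-2.21, SE 0.55, adjusted p = 0.0495). With median-ratio scaling the Alox15 regions were not called at 6 hours (adjusted p = 0.0527 and 0.0661), nor the Alox5 region at 24 hours (0.0576). Treated and basal libraries did not overlap at the last of these regions or at -22461 bp, and at -44412 bp one library of 1 hour reached the basal level (2.32 and 23.06).

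**Figure D3:**
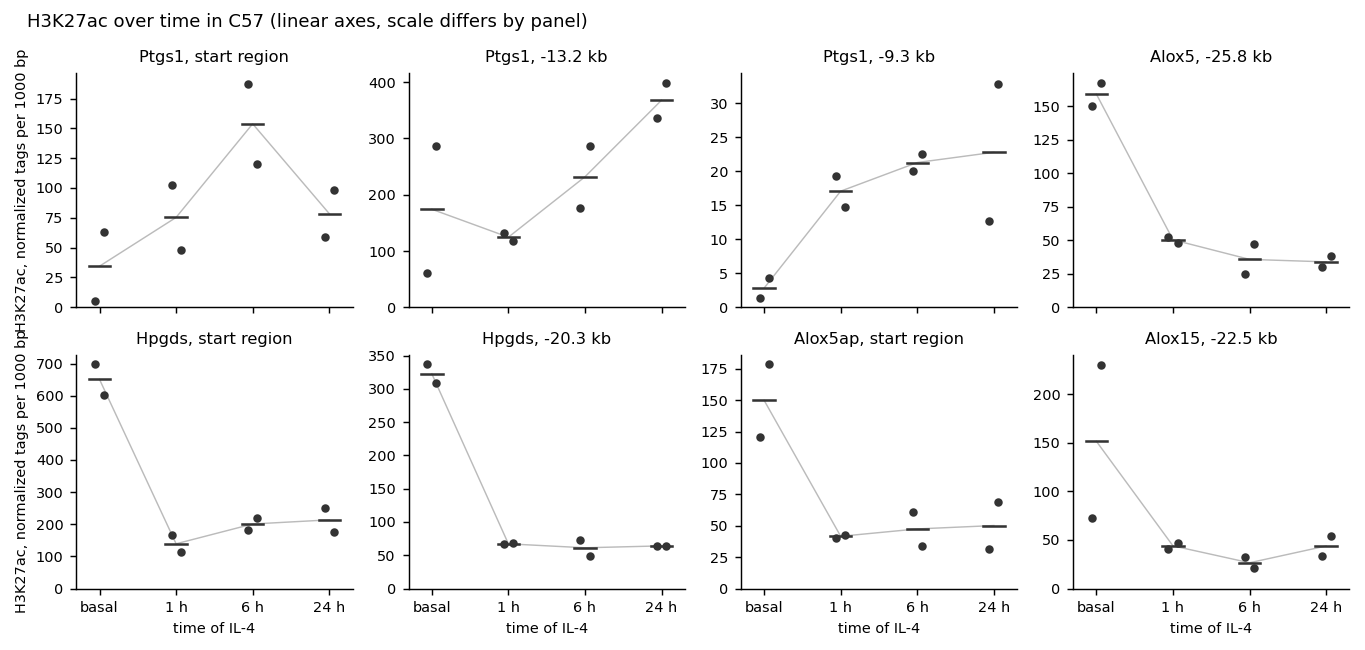
H3K27ac in normalized tags per 10000000 (linear axes, scale differing by panel) at regions of the 5 genes in C57 BMDMs, basal and after 1, 6 and 24 hours of IL-4, each point a library. The Ptgs1 site at -9305 bp goes from 1.36 and 4.28 to values between 12.73 and 32.82, and the Hpgds region at -20260 bp from over 300 to between 49.29 and 73.16.

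Pol II over the same time course was called by limma at Ptgs1 and at none of the other 4 genes. At 6 hours 1 member region was higher (0.428% of all regions) and 0 lower (0.137%), and at 24 hours 2 were higher (0.503%) and 0 lower (0.174%). At the intronic region +14471 bp values were 0.62, 3.21, 6.97 and 2.03 basal, 30.12 and 20.48 at 6 hours (log2 difference 2.85, SE 0.60, adjusted p = 0.0393) and 14.67, 37.77 and 17.96 at 24 hours (2.66, SE 0.53, adjusted p = 0.0275). At -9305 bp they were 0.62, 0.8, 1.07 and 2.03 basal and 7.34, 6.83 and 8.98 at 24 hours (2.07, SE 0.46, adjusted p = 0.0452). Treated libraries exceeded all basal ones in both, and the call at -9305 bp was lost with median-ratio scaling (adjusted p = 0.0553). At 1 hour a single library held 90.38 at the Ptgs1 start, 17.26 at -9305 bp and 19.8 at +14471 bp, and 70.58 at the Hpgds start. At an unadjusted p under 0.05 limma had 20 of 48 member regions at 6 hours and 21 at 24 hours, in either direction. Of all 77955 regions it had 7971 and 7448. At 6 hours edgeR called 0 lower and DESeq2 3, and at 24 hours edgeR called 0 lower and DESeq2 3. Without either 6 hour library, basal library 2 or 4 or 24 hour library 1 the count at 6 hours was 0, and without basal library 1 it was 9. At 24 hours it was 0 without basal library 2 or 4, 24 hour library 1 or 2 or the first 6 hour library, and 6 without basal library 1.

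EGR2, a zinc finger factor induced by IL-4, was measured over the same times. Its tags were more numerous after IL-4 at several Ptgs1 sites and at the Alox15 site, but the spread between the 2 libraries of a time was large. The sites are themselves EGR2 peaks. The 5 genes held 23 peaks in the C57 list of 24 hours and 5 in the basal list, and each member site lies on a 24 hour peak. At sites without a basal peak a rise over basal is therefore partly built into the listing and is given as a description. No member site was called at 1, 6 or 24 hours (0% of all 30675 sites at each time by limma) by limma, edgeR or DESeq2. At an unadjusted p under 0.05 limma had 1, 2 and 2 of 23 member sites, and 1085, 1169 and 1038 of all 30675 sites.

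At the Alox15 site (-30160 bp) EGR2 was 2.81 and 4.03 normalized tags basal, 4.52 and 17.36 at 1 hour, 20.95 and 45.84 at 6 hours and 28.28 and 26.88 at 24 hours. Both later times lay above the basal libraries (log2 difference at 24 hours 2.71, SE 0.90, unadjusted p = 0.00598, adjusted p = 0.838). At the Ptgs1 site at -9309 bp values were 6.56 and 10.74, then 2.71 and 21.22, 12.22 and 20.88, and 47.58 and 24. The site at -13246 bp from Ptgs1 had 46.36 and 77.89, then 66.84 and 122.48, 137.92 and 195.07, and 128.81 and 184.33, and at the start (+38 bp) 76.8 and 104.75, then 34.32 and 119.59, 144.9 and 194.56, and 219.03 and 144.97. Values of 6 and 24 hours lay above the basal ones at each of these Ptgs1 sites, and those of 1 hour overlapped them. Median log2 differences over all sites were -0.59, 0.17 and 0.66 at 1, 6 and 24 hours, against -0.55, 0.38 and 0.72 for member sites. The share of all sites without such overlap was not counted. The highest EGR2 signal of any member site was -35540 bp from Alox5ap, at 200.43 and 239.05 basal and 402.6 and 265.93 at 24 hours, also above basal.

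**Figure D4:**
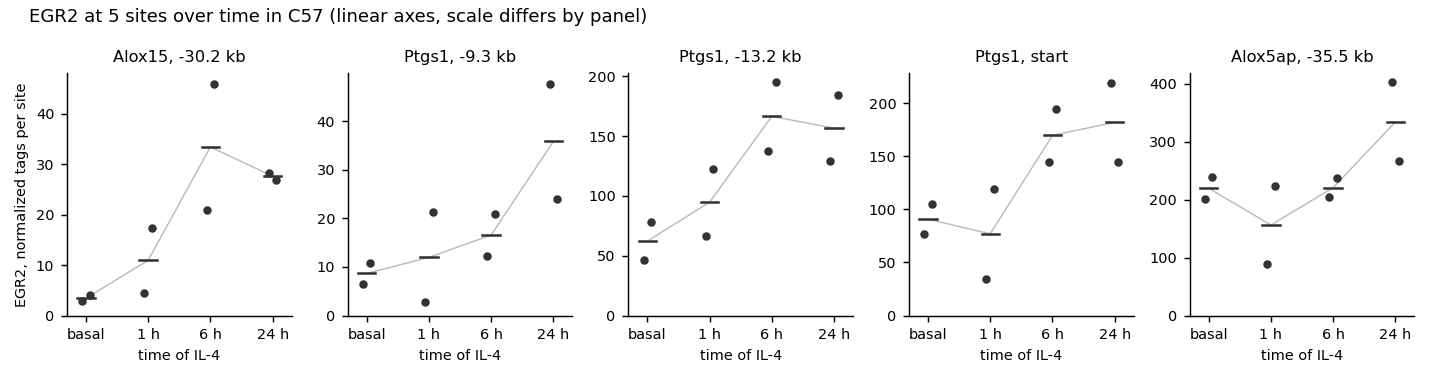
EGR2 in normalized tags per 10000000 (linear axes, scale differing by panel) at 5 sites of Alox15, Ptgs1 and Alox5ap in C57 BMDMs, basal and after 1, 6 and 24 hours of IL-4, each point a library. The Alox15 site at -30160 bp goes from 2.81 and 4.03 to 28.28 and 26.88 at 24 hours, and its 1 hour libraries stand at 4.52 and 17.36.

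Peak lists gave a list per factor, strain and state, and so have no replicate error. The lists were of 2 kinds. EGR2 lists of BALB, NOD, PWK and SPRET and all PPARg lists held peaks of a fixed 200 bp with a plain score. The other lists, those of EGR2 in C57 among them, held peaks of varying width with a score of reproducibility between replicates. EGR2 peaks of C57 and of the other strains are therefore not listed alike. In C57 the 24 hour lists held peaks that overlapped no basal peak for 18 of 23 EGR2 peaks near the 5 genes (72.5% of all peaks), 12 of 41 STAT6 peaks (41.2%), 23 of 30 PPARg peaks (84.0%), 12 of 66 PU1 peaks (18.9%) and 24 of 40 CEBPb peaks (53.8%). A share near that of all peaks says nothing particular about these genes. The lists differed in length, from 8437 peaks basal to 29407 at 24 hours for EGR2 and from 7627 to 39088 for PPARg, and with lists cut to equal length the 89 gained peaks became 25. Over the 5 factors and 5 strains, 6 of 25 pairs of lists lost more peaks near the 5 genes than they gained, among them EGR2 in NOD (1 gained, 9 lost) and PPARg in SPRET (4 gained, 12 lost). These 2 factors' whole lists went from 25341 to 16604 peaks in NOD and from 19684 to 18487 in SPRET. Of all their 24 hour peaks 11.1% and 38.9% were gained, and the shares of all peaks lost were not counted. By gene, the gained CEBPb peaks were 9 of 11 at Ptgs1, 6 of 10 at Alox5ap, 4 of 9 at Alox5, 4 of 7 at Hpgds and 1 of 3 at Alox15. Of the 12 gained PU1 peaks 6 were at Ptgs1, which held 16 of the 66 PU1 peaks. The Ptgs1 site at -9309 bp had no basal peak of any factor in any strain and at 24 hours peaks of EGR2 in C57, of PU1 in BALB, C57, NOD and PWK, of CEBPb in BALB, C57 and PWK and of STAT6 in C57 and PWK. The Alox15 site at -30160 bp likewise had no basal peak and at 24 hours peaks of EGR2 in BALB and C57 and of PU1 and STAT6 in BALB, C57, NOD and PWK, with EGR2 and STAT6 peaks in C57 already at 6 hours. No SPRET list held a peak at either site, where a peak counted when its centre lay within 200 bp of the site's centre. In SPRET at 24 hours an EGR2 peak was listed at -29763 bp from Alox15 (peak count 25.4). By contrast, the Ptgs1 site at -13246 bp was listed for EGR2, PU1 and STAT6 in all 5 strains in both states, and for CEBPb only at 24 hours, in C57, NOD and PWK. The Hpgds region at -20260 bp was listed for PU1 in 5 strains in both states and for STAT6 in 3 strains basal and 2 at 24 hours.

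Egr2 deletion was measured at EGR2 sites induced at 24 hours, so that only the Ptgs1 site at -9309 bp and the Alox15 site at -30160 bp, of 4677 sites, belong to the 5 genes. At the Ptgs1 site H3K27ac, H3K4me2 and PU1 were lower in LyzMCreEgr2flfl than in Egr2flfl BMDMs after IL-4, and at the Alox15 site H3K4me2 was lower. The only region listed near Egr2 itself, +3741 bp from its start, had H3K27ac of 152.77 and 197.82 normalized tags in Egr2flfl and 161.04 and 143.36 in LyzMCreEgr2flfl at 24 hours. No source used here places this region in the deleted part, so it does not check the genotype. The study itself reports, on other evidence, that Egr2 was deleted efficiently in these BMDMs.

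At the Ptgs1 site H3K27ac at 24 hours was 55.28 and 39.18 normalized tags in Egr2flfl and 11.43 and 12.77 in LyzMCreEgr2flfl. In basal BMDMs it was 5.96 and 2.04 against 5.01 and 5.04. The genotypes were separate after IL-4 and overlapped before it. The log2 difference at 24 hours was -1.86 (SE 0.48, adjusted p = 0.00989), against a median of -0.50 over all sites. This was the 1 member call in H3K27ac, all lower (23.2% of all sites lower, 1.41% higher). It was not called after rescaling by median ratios (-1.34, adjusted p = 0.0581), nor without either Egr2flfl library of 24 hours or the first LyzMCreEgr2flfl library of 24 hours, each of which left 0 calls. The difference of the IL-4 response between genotypes was -2.25 (SE 0.67, unadjusted p = 0.0042, adjusted p = 0.170 by limma).

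H3K4me2 was called lower at both sites (8.94% of all sites lower, 0.15% higher). At the Alox15 site it was 26.85 and 25.38 in Egr2flfl and 3.61 and 4.62 in LyzMCreEgr2flfl at 24 hours, with basal means of 8.95 and 7.03 (log2 difference -2.41, SE 0.49, adjusted p = 0.000141). At the Ptgs1 site it was 40.81 and 29.89 against 12.27 and 12.31, with basal means of 9.81 and 7.21 (-1.44, SE 0.44, adjusted p = 0.0178). Genotypes were separate at 24 hours at both sites, and without any one of the 4 libraries of 24 hours the count was 1. Under a replicate block the Ptgs1 site was not called in H3K4me2 (-1.44, adjusted p = 0.0771), and the count was 1. It was also not called there with median-ratio scaling (-1.30, adjusted p = 0.0787). H3K27ac at the Alox15 site stayed low in both genotypes, at 3.02 and 5.78 against 7.27 and 3.48 (0.22, adjusted p = 0.832), with overlap.

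PU1, the lineage factor encoded by Spi1, was called lower at 1 site (9.36% of all sites lower, 0.0855% higher). At the Ptgs1 site PU1 was 47.12 and 49.44 normalized tags in Egr2flfl and 11.14 and 13.13 in LyzMCreEgr2flfl at 24 hours (-1.91, SE 0.34, adjusted p = 0.00351), and in basal BMDMs 16.15 and 16.69 against 5.78 and 4.06 (-1.57, adjusted p = 0.164). The genotypes were separate in both states. Without either Egr2flfl library of 24 hours the PU1 count was 0. At the Alox15 site PU1 was 23.13 and 19.78 against 5.57 and 6.06 (-1.72, adjusted p = 0.0614), also separate.

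CEBPb was called lower at 1 site (8.25% of all sites lower, 0% higher), the Alox15 site, at 10.28 and 11.37 in Egr2flfl against 0.68 and 0 in LyzMCreEgr2flfl at 24 hours (-3.19, SE 0.98, adjusted p = 0.0283), with basal values of 1.95 and 13.88 against 0 and 0. The call was lost without any one of the 4 libraries of 24 hours and with edgeR (adjusted p = 0.0953) and DESeq2 (adjusted p = 0.124). At the Ptgs1 site CEBPb was 57.45 and 25.18 against 5.43 and 8.58, without overlap (-2.32, adjusted p = 0.0988).

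STAT6 and PPARg were low at both sites, and neither gave a call with limma, edgeR or DESeq2. STAT6 calls were 0 (0.0214% of all sites lower, 0% higher), and PPARg calls were 0 (0% of all sites in either direction). At an unadjusted p under 0.05 limma had 1 member site for STAT6 and 2 for PPARg, and 702 and 670 of all 4677 sites. STAT6 at the Alox15 site was 9.96 and 10.62 in Egr2flfl and 1.03 and 1.13 in LyzMCreEgr2flfl (-2.44, adjusted p = 0.19), separate, and PPARg there was 3.07 and 3.15 against 0 and 0 (adjusted p = 0.341). Medians over all sites were -0.79 for STAT6, -1.28 for PPARg, -1.14 for CEBPb, -0.33 for PU1 and -0.16 for H3K4me2. Pol II had a single library a group, with 16.16 against 5.32 at the Alox15 site and 21.27 against 19.96 at the Ptgs1 site after IL-4.

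**Figure D5:**
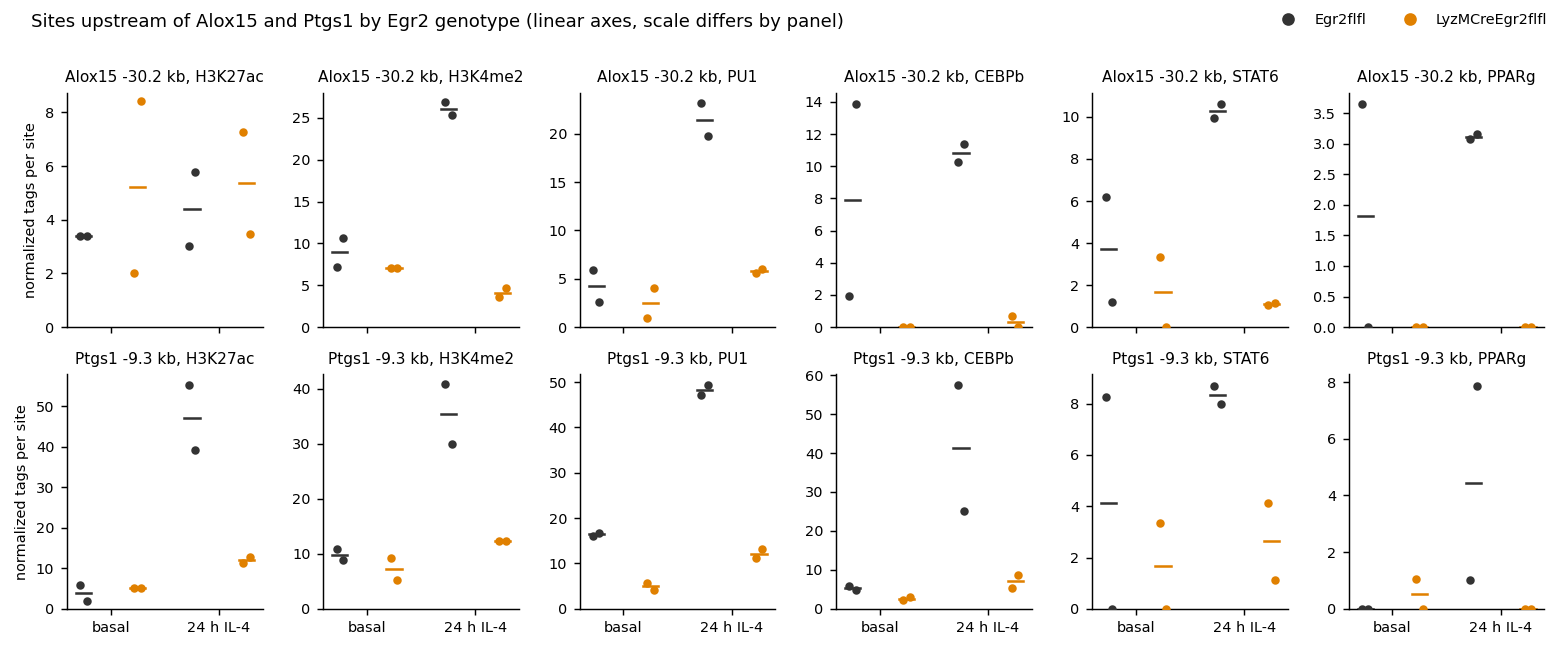
Normalized tags per 10000000 at the Ptgs1 site (-9309 bp) and the Alox15 site (-30160 bp) in Egr2flfl and LyzMCreEgr2flfl BMDMs, basal and after 24 hours of IL-4, each point a library. H3K27ac at the Ptgs1 site stands at 55.28 and 39.18 in Egr2flfl after IL-4 and at 11.43 and 12.77 in LyzMCreEgr2flfl.

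The other genes of the pathway were taken from a list of 49, of which 20 had a start region matched in the 5 strains. In H3K27ac 1 was called higher and 6 lower, where start regions in general were called higher in 2.504% and lower in 20.5% of 8428. The higher one was Pparg, the nuclear receptor for some eicosanoids (249 against 164 normalized tags, log2 difference 0.72, SE 0.23, adjusted p = 0.0207). The lower ones were Dpep2, a dipeptidase that converts leukotriene D (264 against 511, -0.97, adjusted p = 0.000572), the leukotriene receptor Cysltr1 (-0.77), the prostaglandin E receptor Ptger4 (-0.87), the efflux transporters Abcc1 (-0.54) and Abcc4 (-0.68), and Gpx1, a glutathione peroxidase (-0.53). In Pol II Pparg was called higher (0.52, adjusted p = 0.0401) and Dpep2 lower (-0.57, adjusted p = 0.047), with 3.39% and 2.79% of start regions called. Ptgs2, which encodes the inducible cyclooxygenase 2, was at 16.1 against 17.2 in H3K27ac (0.02, adjusted p = 0.957), and the phospholipase gene Pla2g4a at 195 against 220 (-0.21, adjusted p = 0.394). Of the 8 prostanoid enzymes measured, none was called in either mark with limma, and their median log2 difference in H3K27ac was -0.25.

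Start regions most like each member's over the 20 H3K27ac libraries of the 5 strains, among 7733 promoter regions and as a description, were those of Nlrp3 (Pearson r = 0.957), Mknk2 (0.946) and Grn (0.935) for Hpgds, Cxcr3 (0.940), Tor4a (0.929) and 9930012K11Rik (0.923) for Alox5ap, and Pdcd4 (0.836), Dnah1 (0.828) and Itga1 (0.824) for Ptgs1. The libraries share strain, state and scaling, which enter these values.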

How the data were processed

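Deposited signal values are tags counted by the authors with HOMER in regions of 1000 bp (300 bp for factors in the Egr2 tables) after alignment with Bowtie2, as named in the submitters' processing notes (mm10), and scaled by the authors to a library total of 10000000. Per the study's methods, reads of each strain were aligned to that strain's genome and shifted to mm10. Multiplying by the library total gave whole reads for 100% of 7268918 values within 0.1 read. Deposited peak scores in the factor lists are the authors' own. Peak positions were used, and the scores served only to shorten lists to equal length in 1 alternative. Another 4 Pol II columns matched no labelled sample and were not used.

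Groups came from the labels. Differences were tested with limma 3.58.1 in R 4.3.3 on log2(tags + 1), over all regions of a table, with Benjamini-Hochberg adjustment at 0.05. edgeR 4.0.16 and DESeq2 1.42.0 on the recovered reads, a pseudocount of 5, a filter on low values, median-ratio scaling, a replicate block, matching within 500 bp and leaving out each library were alternatives. Fits were tested on simulated data. Same-numbered libraries deviated together (correlation over 0.1 in every pair) in H3K27ac (0.311 to 0.585), Pol II (0.129 to 0.526) and H3K4me2 (0.112 to 0.386) of the strains and in H3K4me2 of the genotypes (0.115 to 0.159), a pairing seen in the values and not given by the labels. Named were each member's start region, its strongest distal region, and the regions with the largest rise and fall; other regions near the 5 genes named in the text were chosen after their values were seen. The 5 genes, the lists and the tests were chosen with earlier results of these data known. Input libraries were not used here.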

Additional observations from a re-analysis of the deposited data

Results flagged for a closer look

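In basal C57 BMDMs, with 4 Pol II libraries, 1 library stood apart from the others at 2 of 40 regions tested by Dixon's ratio of the gap to the range. At the Alox15 region -22465 bp from the start the libraries held 11.14, 11.23, 12.04 and 27.33 normalized tags, the third replicate being high (ratio 0.944). At the Alox5ap region -35584 bp from the start they held 57.88, 62.78, 66.14 and 116.35, the second replicate being high (ratio 0.859). About 1 in 20 such groups passes by chance.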

How the results depend on the processing

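Over the 5 strains, the counts of 18 (H3K27ac) and 15 (Pol II) regions stayed within 1.5 times under every alternative (replicate block 20 and 19; leaving out a library 18 to 19 and 12 to 18), and the interaction counts stayed at 0. H3K4me2 went from 19 to 2 and H3K4me3 from 7 to 3 with median-ratio scaling, which removes the overall fall (16 to 21 and 5 to 8 without a library). In H3K27ac and Pol II over the 5 strains, the start regions of Ptgs1, Hpgds and Alox5ap kept direction and call in every fit; Alox15 and Alox5 had no matched start region and so no such value. In the H3K27ac time course, 15 calls at 1 hour became 4 with median-ratio scaling, and 3 at 24 hours became 1 with edgeR and 7 with DESeq2. For Pol II, 1 call at 6 hours became 2 with pseudocount 5, 2 with median-ratio scaling, 3 with edgeR and 8 with DESeq2, and 2 at 24 hours became 1 with pseudocount 5, the filter or median-ratio scaling and 6 with DESeq2.

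Under a replicate block, H3K27ac counts at 1, 6 and 24 hours were 24, 17 and 12, Pol II counts at 6 and 24 hours 4 and 5, and Egr2 deletion counts 1 (H3K4me2), 2 (PU1) and 0 (CEBPb). Over all tables, same-numbered libraries correlated over 0.1 in 70 of 98 pairs (-0.073 to 0.585). Outside the tables named among the methods the lowest pair of each table fell under 0.1. In the time courses the range was 0.014 to 0.452 for H3K27ac, 0.0526 to 0.321 for Pol II and -0.0728 to 0.466 for EGR2. Whether these libraries are paired is not given by the labels. The block changed no other count by over 1.5 times.

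Leaving out a library gave 1 to 17, 0 to 16 and 0 to 9 calls in H3K27ac and 0 to 9 and 0 to 6 in Pol II at 6 and 24 hours. At 1 hour the H3K27ac count was 3 and 4 without the first or second 6 hour library and 5 and 1 without the first or second basal one. At 6 hours it was 16 without the first 1 hour library and 4 and 3 without the first or second basal one. At 24 hours it was 9 and 8 without the first or second 1 hour library and 1 without the first 24 hour one. Pol II counts at 6 hours were 9 without basal library 1, 3 without 24 hour library 3 and 2 without basal library 3, and 0 without basal library 2 or 4, 24 hour library 1 or either 6 hour library. At 24 hours they were 6 without basal library 1, 1 without basal library 3 or the second 6 hour library, and 0 without basal library 2 or 4, 24 hour library 1 or 2 or the first 6 hour library. EGR2 at 1 hour gave 0 to 4, the 4 without the second 1 hour library.

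After Egr2 deletion, H3K27ac went from 1 to 0 with median-ratio scaling (0 to 1 without a library), H3K4me2 from 2 to 1 with median-ratio scaling or DESeq2 (1 to 2), STAT6 from 0 to 1 with pseudocount 5, PPARg 0 to 1 (1 without the first Egr2flfl library of 24 hours), PU1 from 1 to 2 with pseudocount 5, the filter or edgeR (0 to 2; 2 without either basal LyzMCreEgr2flfl library), and CEBPb from 1 to 2 with pseudocount 5 and 0 with median-ratio scaling, edgeR or DESeq2 (0 to 1). H3K27ac at the Alox15 site (0.22) turned to -0.16 and -0.22 without the first 24 hour library of Egr2flfl or of LyzMCreEgr2flfl, in a range of -0.22 to 0.66.

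The fold counts of 13, 9, 8, 5 and 3 (C57, BALB, NOD, PWK, SPRET) became 22, 14, 19, 15 and 6 with a 2-fold threshold, and 8 in C57 and 5 in BALB with median-ratio scaling. Leaving out a library gave 12 to 16, 5 to 17, 9 to 15, 4 to 9 and 0 to 7: 17 and 5 in BALB and 0 and 7 in SPRET without the first or second 24 hour library, 15 in NOD without the first 24 hour library, and 9 and 8 in PWK without the first or second basal one. The 89 gained peaks became 91 with 50% overlap and 25 with lists cut to equal length. Over 25 single-region results, 19 of them added after seeing the data, 437 of 504 refits kept direction and call, 57 lost the call, 8 gained it and 2 reversed. Apart from the effects named, the causes were not tested.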
